A study of Mus musculus with 6 samples.

Results

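Retinoic acid (RA) exposure of the distal forelimb bud was followed in mouse embryos at E10.5 by setting the distal RA array against the distal control array. These are 2 of the 6 arrays of the series, chosen by their labels, with 1 array in each group. Both came from CD1 embryos, and RNA was taken from the distal part of the forelimb bud. The embryos of the RA array carry the genotype label WT and were exposed to all-trans RA, 100 mg/kg, at E10.25 by gavage of the mother. The untreated embryos of the control array carry the genotype label Ring1A-/-, although another label describes the same array as WT. The other 4 arrays hold the proximal part under both of these conditions, and both parts of the double knockout (dKO), labelled Prx1-Cre; Ring1A-/-; Ring1Bfl/fl and untreated. Prx1-Cre is active in limb mesenchyme and not in limb ectoderm. The sources used here do not give how many embryos stand behind an array or whether they were pooled.

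RA is made from vitamin A and acts by binding nuclear receptors (RARs) that sit with RXR partners on response elements in target genes. In the limb bud it is high in the flank and the proximal part, where it supports the proximal homeobox genes Meis1 and Meis2. The distal part is normally kept low in RA by the enzyme CYP26B1, and its outgrowth is maintained by fibroblast growth factors (FGFs) from the apical ectodermal ridge, a strip of thickened ectoderm along the distal margin.

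Each deposited value is a signal, the hybridisation brightness of a probe set on a linear scale. The median signal of an array was used as its floor, which was 59.5 on the distal control array and 68.2 on the distal RA array. Differences are given as log2 of the RA signal over the control signal, after signals below the floor were set to it, so 1 is a doubling. A difference against a floored signal is a lower bound and is written as at least that size. Where the probe sets of a gene were averaged, those at the floor on both arrays entered with no difference, which makes the average smaller. With 1 array per group there is no replicate error, no test and no p-value, and genes are counted as higher or lower only at 2-fold or more. RA exposure and the genotype label differ together between the arrays, so their parts in any difference cannot be told apart. In bulk tissue, fewer cells of a type and less RNA per cell cannot be told apart either.

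The median signals of the 6 arrays ranged from 59.5 to 76.1, and the numbers of genes above the floor from 10890 to 11387 of 18194. The tissue label was borne out by the markers of limb mesenchyme, of which 10 of 10 were above the floor on both distal arrays. Ring1, the gene for RING1A, was measured by 1 probe set, at 968 on the distal control array and 245 on the distal RA array, and at 624 and 420 in the proximal part. The array labelled Ring1A-/- thus did not read lower than the array labelled WT. Whether the probe set lies within the deleted part of the gene is not given here, so this checks the labels only in part. Xist, the RNA of the inactive X chromosome, had a signal of 3017 on the distal control array and was below the floor on the distal RA array, where the Y-linked gene Eif2s3y was at 3064 against 12.3. The embryos of these arrays therefore differed in sex makeup as well. The spike-in control BioB read 102 to 165 on the distal RA array and 775 to 1437 on the distal control array over its probe sets named BioB-5, BioB-M and BioB-3.

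Of 11396 genes above the floor on at least 1 of the distal arrays, 491 (4.31%) differed 2-fold or more. There were 248 higher (2.18%) and 243 lower (2.13%) genes with RA. The median difference of all these genes was -0.04 on the log2 scale, and among the 10643 genes above the floor on both arrays the 5th and 95th percentiles were -0.70 and 0.60. Of the 248 higher genes, 66 were at the floor on the control array, and 48 of the 243 lower genes were at the floor on the RA array. When each array was instead divided by its median, the split became 161 higher and 425 lower, because the median of all genes moved by -0.20. The direction of small differences of whole gene groups therefore depends on the scaling, and large differences of single genes do so less.

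**Figure D1:**
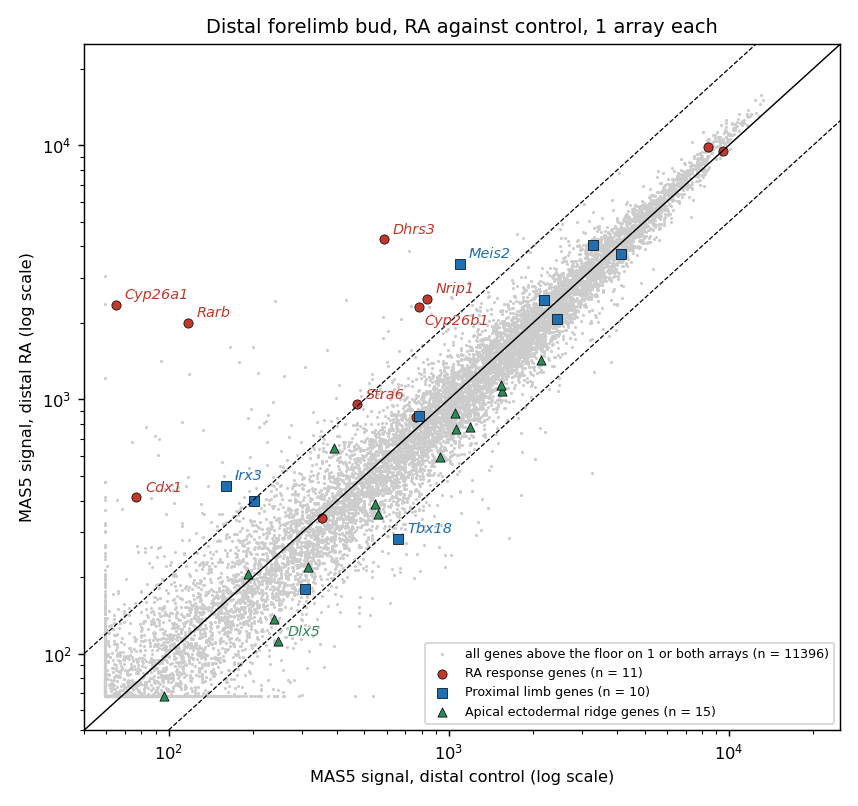
Signal of 11396 genes on the distal control array (x axis) and the distal RA array (y axis), both on log scales, with signals below the floor drawn at the floor; the solid line marks equal signal and the dashed lines 2-fold. Of the 11 RA response genes (circles), 7 lie beyond the upper dashed line, with Cyp26a1 and Rarb farthest from it, while 13 of 15 ridge genes (triangles) lie below the solid line.

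The genes that respond to RA in many tissues were higher in the RA exposed distal bud. Of 17 such genes, 14 were named on the array, 11 were above the floor on at least 1 distal array, and 7 of these 11 were 2-fold or more higher, against 2.18% of all genes. None was 2-fold lower, and the median difference was 1.56. Cyp26a1 and Rarb had the largest differences of all genes above the floor on both arrays. Hoxb1, Stra8 and Rarres1 were at the floor on both.

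Cyp26a1, a cytochrome P450 that breaks down RA, had a signal of 64.8 on the distal control array, just above the floor, and of 2358 on the distal RA array. The difference was 5.19, or 36.4-fold. In the proximal part Cyp26a1 was below the floor on the control array and at 1256 with RA, so that the signal was low on both control arrays and high on both RA arrays.

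Rarb, the gene for the receptor RARβ, had a signal of 117 in the distal control and 2000 with RA, a difference of 4.10. The proximal control array already held 617, and the proximal RA array 2814. The distal RA signal was thus above that of the untreated proximal part.

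The RefSeq promoter windows of Cyp26a1 and Rarb run from 250 bases before to 50 bases after a start site of transcription. They are shown because these genes had the largest differences and because each window holds an RA response element of the DR5 kind. A DR5 is a direct repeat of 2 units, each AGGTCA or GGGTCA or AGTTCA or GGTTCA, with 5 bases between them. A DR2 has 2 bases between the units. Both were searched on both strands. The Cyp26a1 window lies at chr19:37697558-37697857 on the plus strand of GRCm38.p6, with its DR5 read on the opposite strand from base -32 to base -16 relative to that start site. The Rarb window lies at chr14:16575427-16575726 on the minus strand, with its DR5 from base -53 to base -37. The Rarb gene is listed from 16430839 to 17082331, so this start site lies within the gene and is not its outermost start. Capitals mark the DR5, and both sequences are written 5′ to 3′ on the strand of the gene.
Cyp26a1: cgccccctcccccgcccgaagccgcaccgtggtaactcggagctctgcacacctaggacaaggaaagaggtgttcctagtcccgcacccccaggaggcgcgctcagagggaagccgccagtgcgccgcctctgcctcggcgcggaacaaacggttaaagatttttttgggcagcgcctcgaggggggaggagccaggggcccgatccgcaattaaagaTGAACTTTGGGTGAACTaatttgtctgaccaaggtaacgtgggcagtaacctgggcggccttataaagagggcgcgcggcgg
Rarb: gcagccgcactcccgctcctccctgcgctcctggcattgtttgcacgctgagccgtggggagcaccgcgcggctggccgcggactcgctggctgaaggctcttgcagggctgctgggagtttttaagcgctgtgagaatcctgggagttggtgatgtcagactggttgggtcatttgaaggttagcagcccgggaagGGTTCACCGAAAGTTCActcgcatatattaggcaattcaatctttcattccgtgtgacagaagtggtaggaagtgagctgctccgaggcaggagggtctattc

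Of 32851 promoter windows of all genes, 32 (0.0974%) held a DR5 and 88 (0.268%) a DR2. Counted by gene, 9245 genes measured in the distal pair had a window, of which 6 (0.0649%) held a DR5 and 10 (0.108%) a DR2. Among the genes that were 2-fold or more higher, 187 had a window, and 2 of them (1.07%) held a DR5, Cyp26a1 and Rarb, and 0 a DR2. Of 6 RA response genes that were 2-fold higher and had a window, the same 2 (33.3%) held a DR5. Among 186 lower genes with a window, Ppbp, a platelet chemokine, held a DR5 and Ano1, a chloride channel, held a DR2 (0.538% each). A match is a description and not a binding site, and the other windows say only that these letters are not within them.

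Enzymes and transporters of the retinoid pathway followed. Dhrs3, which turns retinaldehyde back into retinol, had 586 in the distal control and 4261 with RA, a difference of 2.86, and the proximal difference was 2.83. Cyp26b1, the RA-degrading enzyme of the distal limb bud, was at 780 in the distal control and at 2301 with RA, a difference of 1.56. Its proximal signals were 302 and 3323, so the proximal part was below the distal part among the controls and above it among the RA arrays. Stra6, the membrane receptor that takes up retinol from its carrier, had 470 and 959, a difference of 1.03, which became 0.83 when arrays were divided by their medians.

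Nrip1, a corepressor of nuclear receptors, had 836 in the distal control and 2489 with RA, a difference of 1.57. All 5 of its probe sets above the floor were 2-fold or more higher, between 1.30 and 2.38. Cdx1, a caudal homeobox gene, had 76.5 and 412, a difference of 2.43, and was below the floor on the proximal control array with 110 on the proximal RA array. Each of the 7 higher RA response genes thus also had a difference above 0 in the proximal part, of 0.78 or more.

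The remaining members showed little difference. Crabp1 and Crabp2, which bind RA in the cytoplasm, had differences of -0.02 and 0.23 in the distal part and 0.56 and 0.76 in the proximal part. Tgm2, a transglutaminase, was at 0.16. Rarres2, the gene for chemerin, was at -0.04 in the distal part and 0.85 in the proximal part.

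**Figure D2:**
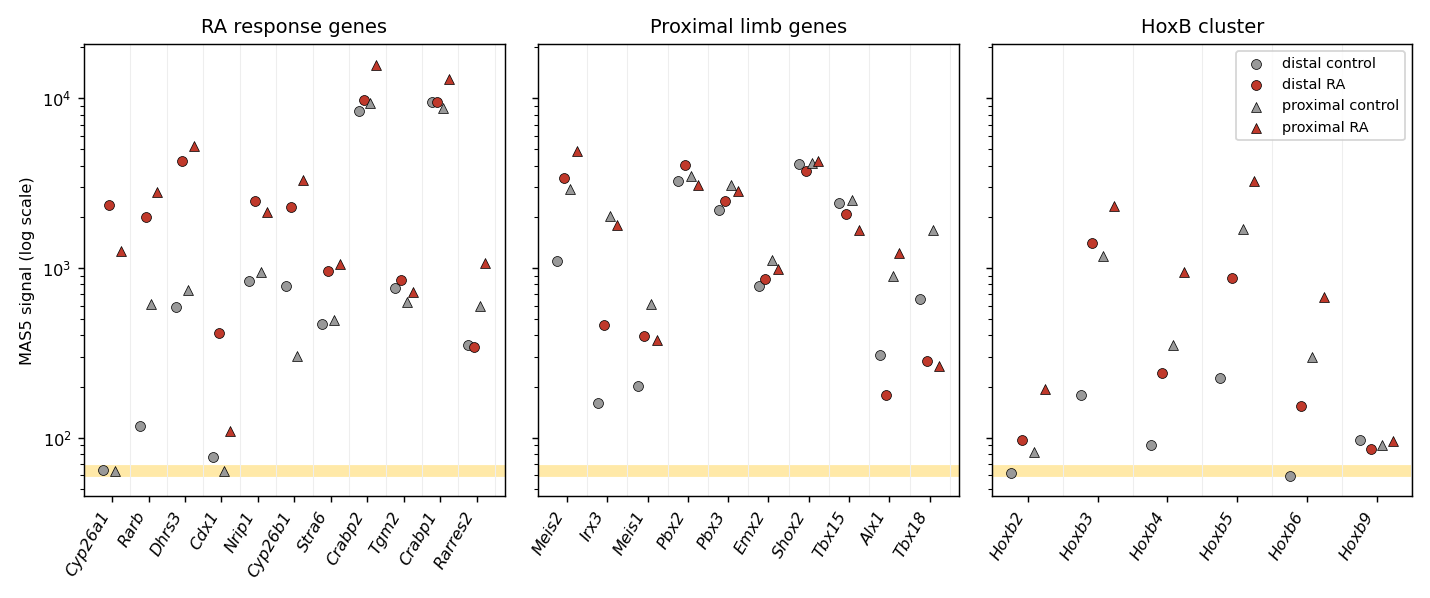
Signal (log scale) of the measured RA response genes, proximal limb genes and HoxB genes on 4 arrays, 1 point per array: circles distal, triangles proximal, grey control, red RA; points below the floor are drawn at the floor and the yellow band spans the floors of these 4 arrays. Rarb, Meis2 and Hoxb3 had distal RA signals above the proximal control, and those of Irx3, Hoxb4, Hoxb5 and Hoxb6 were between the distal and the proximal control.

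Genes that make and carry retinoids did not share this pattern. Of 15 synthesis and transport genes, 14 were on the array and 7 above the floor, and 0 were 2-fold different in either direction, with a median of -0.01. Ttr, a carrier of retinol-binding protein in blood, had the largest difference, 0.85, and Rdh10, which makes retinaldehyde, was at 0.05 with signals of 304 and 315. Aldh1a2, the main RA-making enzyme of the embryo, was at the floor on both distal arrays. Of the receptors and cofactors, 11 of 13 on the array were measured, and 0 were 2-fold different, with a median of -0.01. Nr2f2 (COUP-TFII), an orphan nuclear receptor, was close to the threshold at 1208 and 2358, a difference of 0.96, and 2 of its 5 measured probe sets were past 2-fold. Rarg, the RA receptor of limb mesenchyme, had a difference of -0.30 in the distal part and 1.04 in the proximal part. Rxra and Rxrb, partners of the RARs, were at -0.01 and -0.10.

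Proximal limb genes had no common direction. Of 15 such genes, 13 were on the array and 10 were measured. Of these, 2 were higher, against 2.18% of all genes, and 1 was lower, against 2.13%. The median of 0.16 became -0.04 after division by the array medians. Meis2 and Irx3 were higher, Meis1 was just below 2-fold, and Tbx18 was lower. Irx5, Meis3 and Alx4 were at the floor on both distal arrays.

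Meis2, a TALE homeobox gene of the proximal limb, had a signal of 1094 in the distal control, 3411 with RA, and 2941 in the proximal control. The difference was 1.64, and 4 of 4 probe sets were 2-fold or more higher, between 1.34 and 2.73. In the proximal part RA and control differed by 0.73 for Meis2, and the distal dKO and control by 1.03.

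Meis1, the close relative of Meis2, had 202 in the distal control, 397 with RA and 615 in the proximal control. Its difference of 0.98 lay just below 2-fold, and another probe set gave 1.94. In the proximal part its RA signal of 376 was below the control, a difference of -0.71. The distal and proximal RA signals of Meis1 were thus close to each other, where the controls were not.

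Irx3, an Iroquois homeobox gene of the proximal limb, had 160 in the distal control and 458 with RA, a difference of 1.51. Both stayed far below the proximal control signal of 2019, which differed from the proximal RA array by -0.16. Tbx18, a T-box gene of the flank and proximal limb, had 660 in the distal control and 283 with RA, a difference of -1.22. Its proximal difference was -2.66, with 1678 and 265, so that both RA arrays were low and the part with more Tbx18 in the control differed more.

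The remaining proximal genes lay below 2-fold. Alx1, an aristaless-like homeobox gene of proximal anterior mesenchyme, was at -0.78. Pbx2 and Pbx3, cofactors of the Meis proteins, were at 0.32 and 0.18. Emx2, Shox2 and Tbx15, transcription factors of the shoulder girdle and proximal skeleton, were at 0.14, -0.14 and -0.23, although the second probe set of Shox2 gave -1.26.

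Hox genes differed by cluster. The HoxB genes, expressed along the trunk and known to respond to RA, were higher in 4 of 6 measured, against 2.18% of all genes, with 0 lower and a median of 1.39. Of these 4, Hoxb6 was below the floor in the distal control. It was thus measured only through the RA array and could not be lower, so the count of 4 is partly set by the filter. The HoxA cluster had 0 of 8 past 2-fold in either direction and a median of -0.25, the HoxC cluster 1 of 5 higher and a median of -0.31, and the HoxD cluster 1 of 7 lower, against 2.13% of all genes, and a median of 0.13. No test of the difference between clusters is possible with these arrays.

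Hoxb3 had a signal of 179 in the distal control, 1402 with RA and 1179 in the proximal control. The difference was 2.97, while a second probe set of Hoxb3 gave 0.46. Hoxb5 had 226 and 867 against 1699 in the proximal control, a difference of 1.94. These genes were low in the untreated distal part and nearer to the proximal level after exposure.

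Hoxb4 had 90.8 in the distal control and 241 with RA, a difference of 1.41, which was 0.70 when its probe sets were averaged. Hoxb6 was below the floor in the distal control and at 154 with RA, a difference of at least 1.37, which was 0.62 with a fixed floor of 100. Both remained below their proximal control signals of 352 and 300.1. Hoxb2 was at 0.66 and Hoxb9 at -0.19, both with signals below 100 on both distal arrays.

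In the other clusters, Hoxc4 had 487 in the distal control and 1031 with RA, a difference of 1.08, which became 0.89 after division by the array medians. Hoxa5 was at 0.72. Among the genes of the autopod, the future hand, Hoxd11 had 1875 and 933, a difference of -1.01 that was -0.96 after quantile normalization, and Hoxd13 had 4035 and 2037, a difference of -0.99. Hoxa11, which marks the zeugopod, was at -0.57, while Hoxd9 and Hoxd10 were at 0.19 and 0.13. Between the control arrays, the proximal part differed from the distal part by -1.69 for Hoxd13 and by 2.72 for Hoxb3, a comparison that shares the distal control array.

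**Figure D3:**
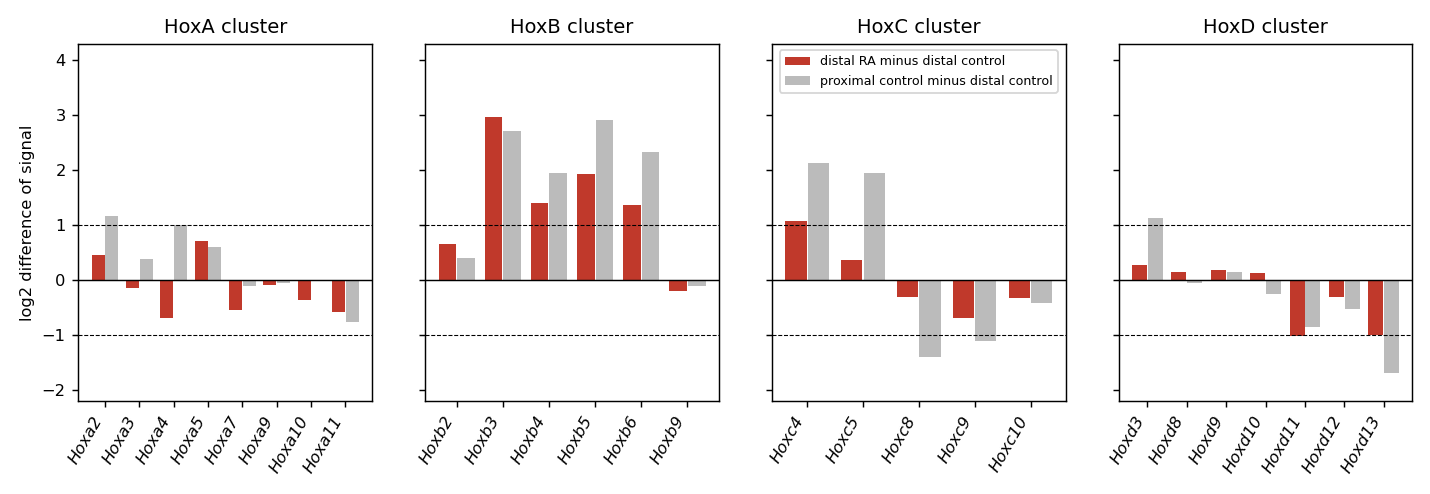
Log2 difference of signal for each measured Hox gene: red bars, distal RA against distal control; grey bars, proximal control against distal control, which shares the distal control array; dashed lines mark 2-fold, and a bar without height is a difference near 0. The red bars of Hoxb3, Hoxb4, Hoxb5 and Hoxb6 pass 2-fold upward, and Hoxd11 and Hoxd13 lie near 2-fold downward.

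Genes of the distal limb mostly did not reach 2-fold. Of 18 such genes, 17 were measured, 0 were higher, 1 (Hoxd11) was lower, against 2.13% of all genes, and 12 were below 0, with a median of -0.31. Jag1, a Notch ligand, was at -0.75, and Lmo1, a LIM-only transcription cofactor, at -0.69. Sall1, a zinc finger gene of the limb, had 3244 and 2252, a difference of -0.53, whereas its relatives Sall3 and Sall4 were both at 0.20. The list thus had members on both sides of 0, with more below it. Msx2, a homeobox gene, had the highest difference of the list, 0.50. Lhx2 and Lhx9, which mediate the response of distal mesenchyme to the ridge, were at 0.26 and -0.20. The proximal pair had 8 of 17 distal limb genes lower, against 6.79% of all genes in that pair.

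Most ridge genes had differences below 0 that did not reach 2-fold. Of 18 ridge genes, 17 were on the array and 15 measured, and 13 of the 15 lay below 0, with a median of -0.52. By the probe sets used, the sole member past 2-fold was Dlx5, a homeobox gene (1 of 15, against 2.13% of all genes). It had 246 in the distal control and 112 with RA, a difference of -1.14. The summed signal of the 17 members on the array was 12090 on the control and 8852 on the RA array.

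The ridge FGFs, which keep the underlying mesenchyme growing, were all detected in the control. Fgf4 had 2141 in the distal control and 1431 with RA, a difference of -0.58. Fgf8, the defining marker of the ridge, had 238 and 137, a difference of -0.80, which became -1.0 after division by the array medians. Both were far above the proximal control, where Fgf4 was at 92.7 and Fgf8 below the floor, so ridge transcripts were still present in the exposed distal part.

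Fgf17 had 96.6 in the control and was below the floor with RA, a difference of -0.50 or lower, while another probe set gave 0.19. Fgf9 was at 0.10, and at -0.10 after division by the array medians, while another probe set gave -0.78. Sp6 and Sp8, zinc finger genes needed for the ridge, had differences of -0.66 and -0.52. Their proximal differences were -1.59 and -3.26, with Sp8 below the floor on the proximal RA array. These zinc finger genes thus differed more in the proximal part, where their control signals were lower. Rspo2, a secreted enhancer of WNT signalling, was at -0.65 and Jag2 at -0.60. Dlx1 and Dlx2 were at -0.52 and -0.26, Cd44 at -0.49, Trp63 at -0.48 and Bambi at -0.43. Another probe set of Cd44 gave -1.07. Dlx3, a homeobox gene of ectoderm, was the main exception, with 388 and 644, a difference of 0.73.

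Surface ectoderm is the tissue from which the ridge forms. Of its 13 measured markers, 12 were below 0 and 2 were 2-fold lower, against 2.13% of all genes, with a median of -0.55 and a summed signal of 24064 on the control and 17555 on the RA array. These 2 were Krt14 and Krt5, keratins of basal epithelium, with 279 and 105 (-1.41, or -0.94 with probe sets averaged) and with 948 and 421 (-1.17). Epcam, an epithelial adhesion molecule, was at -0.65 and Cdh1 (E-cadherin) at -0.28, and Esrp1, an epithelial splicing factor, was at 0.19. The part of the ectoderm share in the ridge differences was not tested. In the proximal pair the ectoderm markers had 0 of 13 past 2-fold and a median of -0.42. The ridge genes had 5 of 12 lower there, against 6.79% of all genes in that pair, and a median of -0.60.

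**Figure D4:**
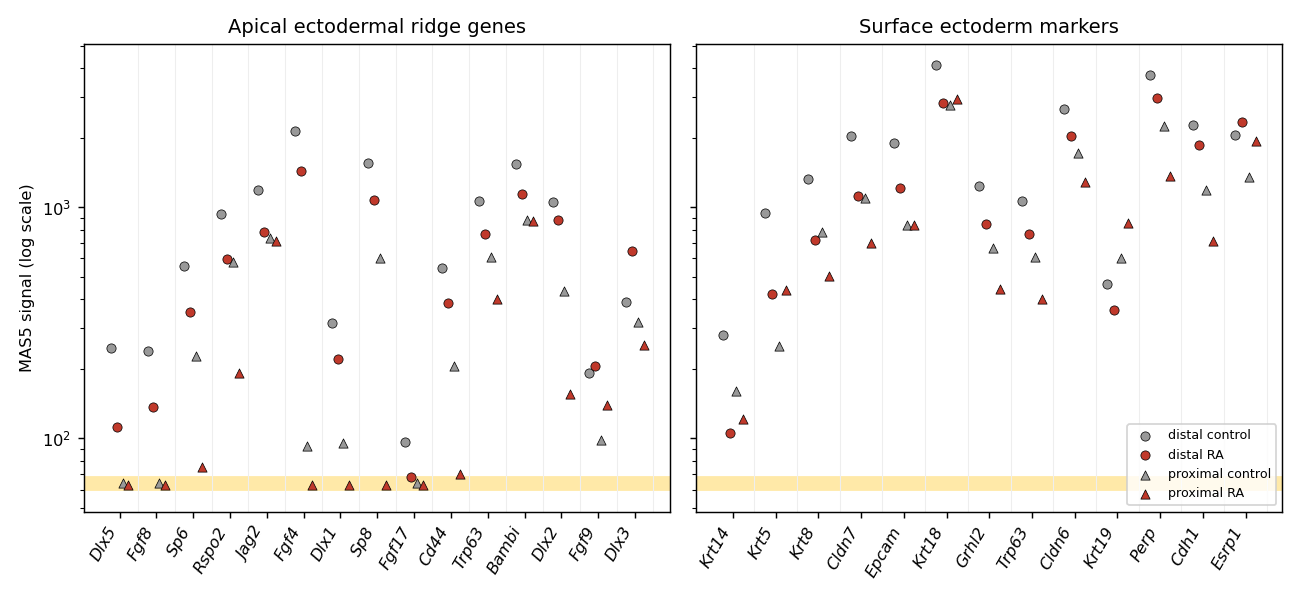
Signal (log scale) of the measured ridge genes and surface ectoderm markers on 4 arrays, 1 point per array, in order of the distal difference: circles distal, triangles proximal, grey control, red RA; points below the floor are drawn at the floor and the yellow band spans the floors. The distal RA point lies below the distal control for 13 of 15 ridge genes and 12 of 13 ectoderm markers.

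Signalling pathways of the distal bud showed few differences past 2-fold. Among 10 FGF response genes, 1 was higher, against 2.18% of all genes, and 0 lower, with a median of -0.10. The higher one was Dusp5, a phosphatase that acts on ERK, with 191 in the distal control and 844 with RA, a difference of 2.14. Dusp6, the main FGF-induced phosphatase of limb mesenchyme, had 3351 and 3518, a difference of 0.07, and Spry1, a feedback inhibitor, was at -0.80. Etv4 and Etv5, transcription factors induced by FGF, were at -0.31 and -0.39. Spred2 was at 0.48, although 2 of its 4 measured probe sets were 2-fold or more higher, up to 1.42. Its proximal difference was -1.22. The proximal pair had 4 of 10 FGF response genes lower, among them Etv5 at -1.62, against 6.79% of all genes in that pair. The median there was -0.89.

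The posterior signal itself was lower with RA. Shh, the morphogen of the posterior margin, had 1099 in the distal control and 433 with RA, a difference of -1.34. It was -0.67 with probe sets averaged, but only 1 of its 2 probe sets was measured and the other entered with no difference. Grem1, the BMP antagonist that links SHH to the ridge FGFs, had 1208 and 483, a difference of -1.32. The proximal differences were -1.02 and -2.14.

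Targets of SHH did not share one direction. Gli1 was at -0.67 with 569 and 356, while Ptch1, the SHH receptor and target, was at 0.08 with 5253 and 5567, and another of its probe sets gave 1.13. Hhip, an SHH target that binds the ligand, was below the floor in the control and at 90.2 with RA, a difference of at least 0.60, or 1.0 with floors at the 25th percentile. Hand2, the posterior transcription factor upstream of Shh, was at -0.27. Tbx2, a T-box gene of the limb margins, had 139 and 456, a difference of 1.72, with 2.48 in the proximal part, and its relative Tbx3 was at 0.90 with 2502 and 4679. Over the 11 genes of this list 1 was higher and 2 were lower, against 2.18% and 2.13% of all genes, with a median of -0.04.

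Among 12 BMP pathway genes, 0 were higher and 1 was lower, against 2.13% of all genes, with a median of -0.18. Bmp2, a ligand of the ridge and posterior mesenchyme, had 464 and 222, a difference of -1.06. Bmp5, another ligand, had 178 and 92.0, a difference of -0.95, and Id3, a BMP target, was at 0.81. Among 12 WNT pathway genes, 0 were higher and 1 was lower, against 2.13% of all genes, with a median of -0.35 and 11 below 0. Wnt7a, made by dorsal ectoderm, had 1093 and 435, a difference of -1.33 that was -0.44 with probe sets averaged. Wnt6, also of ectoderm, was at -0.89, which became -1.09 after division by the array medians, and Wnt3, a further ectodermal ligand, at 0.17 or, after that division, at -0.03. Axin2, a WNT target, was at -0.28.

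Genes of cartilage formation had 0 of 8 higher and 1 lower, against 2.13% of all genes, with a median of -0.02. Sox9, the master regulator of cartilage, was at 0.91 with 357 and 671, and its partner Sox6 had 531 and 212, a difference of -1.33, or -0.84 with probe sets averaged. Of the targets of p53 and genes of cell death, 8 of 8 lay below 0 and 2 were 2-fold lower, against 2.13% of all genes, with a median of -0.52. Cdkn1a, the cell cycle inhibitor p21 that is also made in the ridge, had 1419 and 545, a difference of -1.38 with 2 of 2 probe sets lower, and Pmaip1, the death gene Noxa, had 782 and 371, a difference of -1.08. Proliferation genes showed 0 of 13 past 2-fold and a median of -0.06, with Mki67 at 0.17 and Pcna at -0.06.

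**Figure D5:**
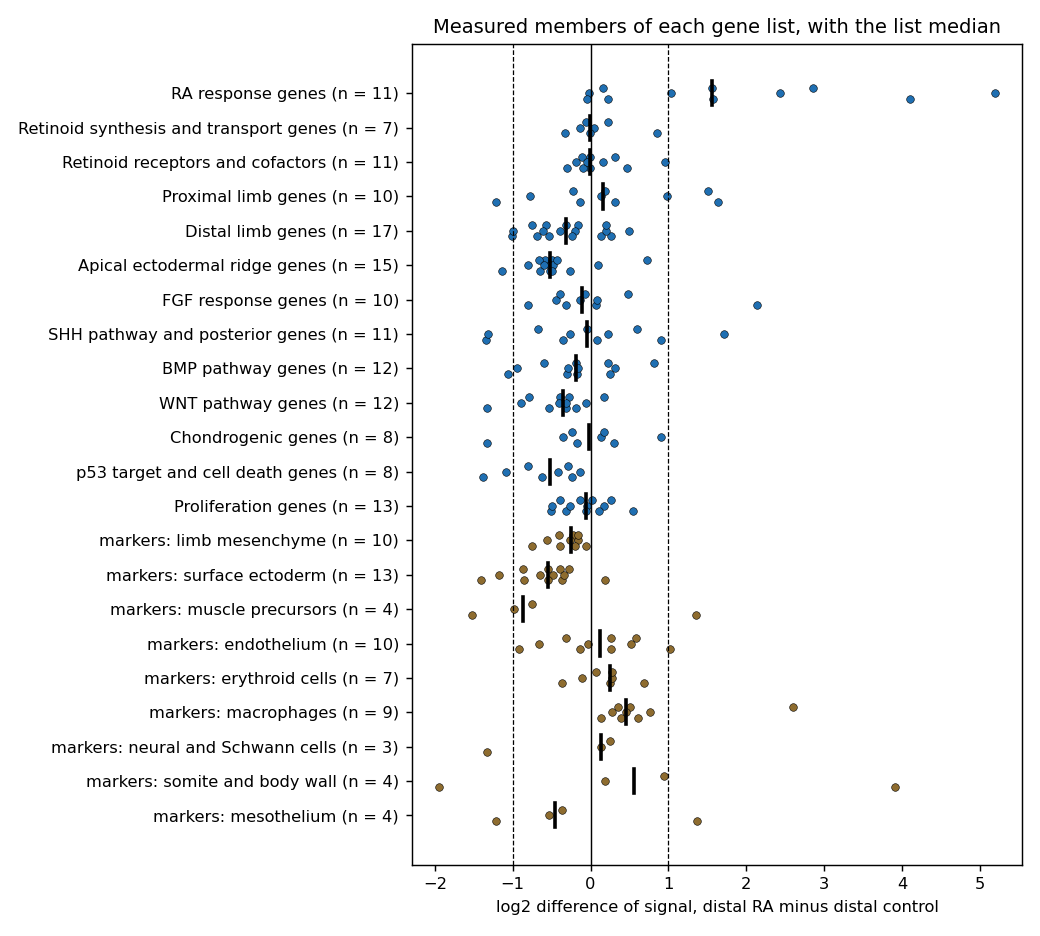
Log2 difference between the distal RA and distal control arrays for the measured members of each gene list, 1 point per gene, with the median of the list as a vertical bar and dashed lines at 2-fold. The RA response genes have a median of 1.56, the ridge genes of -0.52 and the surface ectoderm markers of -0.55.

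Markers of the other cell types in the bud gave a mixed picture. Limb mesenchyme markers had 0 of 10 past 2-fold, 10 of 10 below 0 and a median of -0.25, with summed signals of 27314 in the control and 22552 with RA. Erythroid genes had 0 of 7 past 2-fold and a median of 0.25. Endothelial genes had 1 of 10 higher, against 2.18% of all genes, and a median of 0.12. The higher one was Flt1 at 1.02 (0.22 with probe sets averaged). Of 4 measured muscle precursor markers, 1 was higher and 1 lower, against 2.18% and 2.13% of all genes. The median was -0.87, or -0.35 with probe sets averaged, and 3 of the 4 were below 0. Lbx1, a homeobox gene that muscle precursors need for their migration, had 227 and 79.0 (-1.52, or -0.76 with probe sets averaged). Pax3 had 218 and 110 (-0.98), and Met had 732 and 434 (-0.75). Pax7 was below the floor in the control and at 151 with RA (at least 1.35, or 0.60 with a fixed floor of 100). Pax7 was thus measured only through the RA array and could not be lower.

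Macrophage markers were all above 0, 9 of 9, with a median of 0.46 and summed signals of 1200 in the control and 2754 with RA. This count is partly set by the filter. C1qa, C1qc and Ptprc were below the floor in the control. They were thus measured only through the RA array and could not fall below 0. C1qb, a complement subunit, was the 1 member past 2-fold, with 209 and 1264, a difference of 2.60, while another probe set gave 0.55, and C1qa and C1qc read 75.9 and 72.2 with RA from below the floor. With floors at the 25th percentile 4 of the markers were past 2-fold, among them C1qc at 2.18, C1qa at 1.86 and Ptprc, the leukocyte antigen CD45, at 1.23, and without a floor also 4. After division by the array medians Lyz2 was at -0.06 and the median was 0.26. Neural markers had 3 of 7 above the floor, with 0 higher, 1 lower, against 2.13% of all genes, and a median of 0.13. The lower one was Tubb3, a neuronal tubulin, with 266 and 106, a difference of -1.33. The other 2, Nefl and Elavl4, were at 0.25 and 0.13. Sox10 and Foxd3, which define neural crest and its Schwann cells, were at the floor on both arrays.

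Markers of somite and body wall held large differences in opposite directions. Foxc2, a forkhead gene of paraxial mesoderm and vessels, had 93.7 in the distal control and 1412 with RA, a difference of 3.91, and was higher by 2.71 in the proximal part. Meox1, a homeobox gene of somites, was at 0.94 with 245 and 469, and at 3.08 in the proximal part. Meox2, its relative in limb muscle precursors, had 1271 and 330, a difference of -1.94 with 2 of 2 probe sets lower. Pax1, Pax9, Uncx and Nkx3-2, which define the sclerotome, were at the floor on both distal arrays. Of 4 measured mesothelium markers, 1 was higher and 1 lower, against 2.18% and 2.13% of all genes. The median was -0.46, and 3 of the 4 were below 0. The higher one was Wt1, a gene of mesothelium and kidney mesoderm, which was below the floor in the control and at 154 with RA. Its difference was at least 1.37, or 0.62 with a fixed floor of 100. Wt1 was thus measured only through the RA array and could not fall below 0. Upk3b, above the floor on both distal arrays, had 109 and 74.8, a difference of -0.54. Msln and Lrrn4, further mesothelial genes, were at the floor on both distal arrays.

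Outside these lists, the 12 largest increases among genes above the floor on both arrays ran from 2.91 to 5.19. After Cyp26a1, Rarb and Foxc2 came the uncharacterised transcript G630016G05Rik, with 118 in the distal control, 1263 with RA and 680 in the proximal control, a difference of 3.42. Prap1, a secreted proline-rich protein, had 240 and 2443, a difference of 3.35, and both of its probe sets were above 3. Ngfr, the p75 neurotrophin receptor, had 166 and 1613, a difference of 3.28, although a second probe set gave 0.41. Psd2, an exchange factor for ARF GTPases, had 82.8 and 777 (3.23), and Skor1, a SKI family corepressor, 74.1 and 678 (3.19). In the proximal pair Prap1 differed by 2.46 and G630016G05Rik by 2.0, but Ngfr by 0.83, Psd2 by 0.47 and Skor1 by at least 0.86. Gm8350, Cygb (cytoglobin) and Bcl6, a transcriptional repressor, were at 3.01, 3.0 and 2.91.

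Among genes that were at the floor in the distal control, Csn3, the gene for kappa casein, reached 2366 with RA, a difference of at least 5.31, and was higher by 3.44 in the proximal pair. Tmem87a, the gene for a membrane protein, was likewise low on both control arrays and high on both RA arrays. It reached 1217, a difference of at least 4.35. Nkx1-2, a homeobox gene of the tail bud, reached 471, at least 2.98, and was at the floor on both proximal arrays. With probe sets averaged it was at 0.99, but only 1 of its 3 probe sets was measured in the distal pair. Ccl6, a chemokine of myeloid cells, reached 412, at least 2.79, and D630033O11Rik 472, at least 2.99.

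The 12 largest decreases ran from -1.94 to -2.67. Ctr9, a subunit of the Paf1 transcription elongation complex, had 3254 and 511, a difference of -2.67. Its 5 probe sets disagreed, ranging from -2.67 to 0.79, and averaged they gave -0.40. Adi1, an enzyme of methionine salvage, had 1646 and 284 (-2.54), with 2 of 3 probe sets lower, and Rpain, which carries RPA into the nucleus, had 967 and 219 (-2.14).

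Further genes of the 12 lowest had these values. Mab21l2, a gene of distal and eye mesenchyme, had 1808 in the distal control and 422 with RA, a difference of -2.10, and -2.84 in the proximal pair. Bhlha9, a transcription factor of the ridge linked to limb malformation, had 618 and 159, a difference of -1.96. These 2 genes had a single probe set each. Lats2, a kinase of the Hippo pathway, was at -2.10, or -0.35 with probe sets averaged, of which 3 of 6 were measured. Cxcl14, a chemokine, was at -2.06. Gja3, a gap junction protein, had 1300 and 306 (-2.09), and Mir205hg, the host of an epithelial microRNA, had 299 and 68.5 (-2.12). Pam, an enzyme of peptide amidation, was at -2.01.

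Among genes that were at the floor with RA, apart from Xist, Prl8a2, a prolactin family gene, had 537 in the distal control, a difference of -2.98 or lower. The transcript Eldr had 462, a difference of -2.76 or lower, while its second probe set gave -0.09. Tmprss13, a serine protease of epithelium, had 293 (-2.10 or lower), and Ppbp 257 (-1.91 or lower). Rab6b, a vesicle trafficking GTPase, also had 257 (-1.91 or lower), but its value was -0.60 with probe sets averaged, of which 2 of 4 were measured.

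Where a gene had further probe sets, they seldom pointed the other way. For 73 of the 248 higher genes there were 127 further measured probe sets, of which 59 were also 2-fold higher, 59 were higher by less, 9 were at or below 0 and 0 were 2-fold lower. For 90 of the 243 lower genes there were 123, of which 34 were 2-fold lower, 67 lower by less, 22 at or above 0 and 2 were 2-fold higher.

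The proximal pair, RA against control, shares no array with the distal pair but has the same difference in treatment and genotype label. It also shares the difference in sex makeup, with Xist at 3688 in the proximal control and below the floor with RA and Eif2s3y at 6.5 and 2783, and the low BioB spike-in, at 799 to 1343 in the proximal control and 84.4 to 135 with RA over the same 3 probe sets. Their part in the overlap was not tested. In the proximal pair, 426 genes were higher (3.69%) and 784 lower (6.79%) of 11539. Of the 248 genes higher in the distal part, 225 were measured in the proximal pair and 99 were 2-fold higher there and 5 lower, with a median of 0.88. These 99 are 39.9% of the distal list and 23.2% of the proximal one. Of the 243 genes lower in the distal part, 233 were measured, 110 were 2-fold lower in the proximal pair and 2 higher, with a median of -0.92, which is 45.3% of the distal and 14% of the proximal list.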

How the data were processed

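RNA from the proximal and the distal part of mouse forelimb buds was hybridised to 6 Affymetrix arrays of 1 colour, 1 array per part and condition, and the number of arrays limits the precision. Per the labels' protocols, total RNA came from RNeasy Micro columns, and in vitro transcription gave biotin-labelled cRNA. The authors deposited an intensity per probe set on a linear scale, which comes from MAS5 per the submitters' processing notes; its version is not stated in the labels used. The mean signal of every array is 500 without the top and bottom 2% of probe sets, a scaling that ties the arrays to their overall brightness.

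From these values the following was computed with Python 3.11.15, numpy 2.4.6, pandas 2.3.3 and matplotlib 3.10.9. Of 45101 probe sets, 64 are controls, 34958 have 1 gene symbol, 932 have several and 9211 have no listed gene. Probe sets were named from the platform annotation, and the gene ID of 34754 matched RefSeq with 0 symbols changed. Each array was floored at its median, log2 was taken, and for each of 18194 genes the probe set of highest mean log2 over the 6 arrays was used. A gene was measured in a pair when it was above the floor on at least 1 of the arrays. A gene at the floor on 1 array was thus measured only through the other, and its difference could take only 1 direction. Counts were made at 2-fold, and no statistical test of the arrays was run. The code that counts genes was checked on simulated data.

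The members and the 27 gene lists were chosen with earlier results of these data known. The text names every member of the RA, proximal, distal, ridge, FGF, SHH and Hox lists that was 2-fold different, up to 4 of each other list, the 12 highest and 12 lowest genes above the floor on both arrays, and the 6 brightest on 1 array with the other at the floor. Further list members below 2-fold, and genes at the floor on both arrays, were named after their values were seen. Alternatives were quantile normalization, division by the array median, floors at the 25th percentile or at a signal of 100, no floor with a pseudocount of 1, the mean of all probe sets, and 3-fold. Promoter windows are RefSeq's for GRCm38.p6.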

Additional observations from a re-analysis of the deposited data

Results flagged for a closer look

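For 7 genes the distal and the proximal pair differed 2-fold or more in opposite directions between RA and control. None of these differences between the parts was tested, since each rests on 1 array per group. Adamts4, a protease of cartilage matrix, differed by 1.48 in the distal and -1.14 in the proximal part, with distal signals of 406 and 1135 and proximal signals of 615 and 280. Hpse2, a heparanase relative, differed by 1.13 and -1.50, Fam241a by 1.02 and -1.44, and Svopl, a transporter-like gene, by 1.0 and -1.74. Dhtkd1, an enzyme of lysine breakdown, lay at the threshold with 1.0 and -1.01. Pou4f1, a POU homeobox gene of sensory neurons, differed by -1.63 in the distal and 1.27 in the proximal part, with distal signals of 318 and 103 and proximal signals of 129 and 309. Diras2, a small GTPase, differed by -1.61 or lower in the distal part and by at least 1.84 in the proximal part, being below the floor on the distal RA and the proximal control array. No RA response, proximal, ridge or HoxB gene was among these 7.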

How the results depend on the processing

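Of the 491 genes past 2-fold in the distal pair, 432 remained so in the same direction after quantile normalization (196 higher, 271 lower), 404 after division by the array medians (161 higher, 425 lower, or 27.5% of the calls higher against 50.5%), 491 with floors at the 25th percentile (719 higher, 562 lower), 365 with a fixed floor of 100 (178 and 189), 490 without a floor (327 higher, 393 lower) and 271 with the probe sets of a gene averaged (170 higher, 131 lower). None had the opposite sign under any of these 6 settings. At 3-fold there were 86 higher and 53 lower genes, or 61.9% higher. RA response genes past 2-fold numbered 7, with 4 past 3-fold, and proximal limb genes 2 higher and 1 lower, with 1 and 0 past 3-fold and 2 lower with floors at the 25th percentile. Ridge genes past 2-fold downward numbered 1, 2 with floors at the 25th percentile, 2 without a floor and 0 at 3-fold. Among the named genes past 2-fold, 69 in all, between 55 and 69 stayed past it, and the fewest did so with probe sets averaged. Probe sets at the floor on both arrays entered these averages with no difference, which lowers the number of genes that stay past 2-fold. The causes were not tested. No paired analysis was possible because each group has 1 array. Signals near the floor, such as those of Cyp26a1 and Cdx1 in the distal control, limit the size of a fold, and no replicate error can be given for any value.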

Other observations

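The following gene groups were put together after the values were seen, so their counts only describe these arrays. Genes of the smooth muscle contractile apparatus differed 2-fold or more between the distal arrays in 4 of 13 measured, against 4.31% of all genes, with the control above RA in all 4 and a median of -0.55. The distal control array stood apart from the other 5 for these 4 genes. Tagln (SM22) had 256 there and 70.1 to 97.7 on the others, Synpo2 237 there and 55.6 to 111 on the others, and Actg2 199 there and 4.3 to 26.2 on the others. Acta2, smooth muscle actin, had 238 there and 32.4 to 142 on the others. Acta2, Actg2, Synpo2 and a further member, Des, were below the floor on the distal RA array. They were thus measured only through the control array and could not be higher with RA. Whether the distal control array alone accounts for the difference was not tested. In the proximal pair 0 of 11 were past 2-fold, with a median of 0.29.

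Further genes of myeloid cells, outside the macrophage markers, were higher in the distal RA array in 10 of 14, against 2.18% of all genes, with a median of 1.07. In the proximal pair 1 of 12 was higher, against 3.69% of all genes, with a median of 0.29. Cd83, an immune cell surface gene, had 223 and 825, a difference of 1.88, and Ctss, a lysosomal protease, reached 198 from below the floor. Most of these signals were low, and 13 of the 14 differences were above 0. Ctss, Aif1, Clec7a, Ccl6, Ccl9, S100a9 and Cd14 were below the floor in the distal control. They were thus measured only through the RA array and could not fall below 0. The counts of 10 and 13 are therefore partly set by the filter.

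Secreted growth factors and chemokines were higher in 9 of 16 and lower in 3, against 2.18% and 2.13% of all genes. Of these 9, Cxcl12 was below the floor in the distal control, so it was measured only through the RA array and could not be lower. Igf1, a growth factor, had 103 and 459, a difference of 2.16 in the distal part and 2.21 in the proximal part. Kitl, the ligand of KIT, differed by 2.09, Hgf, which draws muscle precursors into the limb, by 1.52, Fgf18 by 1.51 and Vegfa, the vessel growth factor, by 1.18. Rspo3, an enhancer of WNT signalling, had 793 and 211, a difference of -1.91, and Vegfd differed by -1.18. The proximal pair had 3 of 16 higher and 2 lower, against 3.69% and 6.79% of all genes, and Vegfa was at -0.94 there.

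Of 7 measured forkhead genes of mesenchyme, 3 were higher in the distal part, against 2.18% of all genes, with a median of 0.79, and 5 in the proximal part, against 3.69%, with a median of 1.51. Besides Foxc2, Foxp2 had 103 and 440, a difference of 2.09, and Foxc1 was below the floor in the distal control and at 235 with RA, a difference of at least 1.98. Foxd2 was also below the floor in the distal control. Foxc1 and Foxd2 were thus measured there only through the RA array and could not fall below 0, so the distal count of 3 is partly set by the filter. Of 11 nicotinic acetylcholine receptor genes, 4 were measured in the distal part and 2 were higher, against 2.18% of all genes. These 2, the neighbouring genes Chrna3 and Chrnb4, reached 367 and 267 from below the floor, differences of at least 2.63 and 2.17. In the proximal part the differences were at least 1.32 and 1.21. Both genes were measured only through the RA arrays and could not be lower. Chrna1 and Chrna7, above the floor on both distal arrays, were at 0.43 and 0.13.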
